A study of Mus musculus with 21 samples.

Results

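A set of 38 genes known from the endothelium of blood and lymph vessels was followed across mouse mammary carcinoma cells and tumours. The set is a list of named genes, and each was read from the probe set that carries its symbol alone. All 38 genes were measured, each by 1 probe set, among 22180 genes on the array. The samples were 15 orthotopic tumours and 6 cell cultures, profiled on Affymetrix whole-transcript arrays, and levels are given as deposited log2 signals after RMA normalization. The tumours formed 3 groups of 5. Mixed tumours grew from Py117 and Py8119 cells implanted 1:1, Py8119 tumours from Py8119 cells alone and Py117 tumours from Py117 cells alone. The cultures were 3 of Py8119 cells and 3 of Py117 cells, grown in F12K medium with 5% serum. Both lines are clones from mammary tumours of MMTV-PyMT mice, in which a mammary promoter drives the polyomavirus middle T oncogene, so each line stands for 1 clone. For tumours, 1000000 cells in matrigel were placed in mammary fat pad 4, and no cell or tumour was treated. The series, which concerns immune responses to radiation, calls Py8119 clones resistant and Py117 clones sensitive. All tumours were collected, unirradiated, at the time when radiotherapy is normally started. The genotype, age and number of host mice were not given in the sources used here.

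Endothelial cells line blood and lymph vessels, and in a grafted tumour they come from the host, which grows vessels into the tumour in response to factors such as VEGF. They are recognised by adherens junction proteins, by receptors for VEGF and angiopoietins, and by transcription factors of the ETS and SOX families that switch on these genes. Several of the listed genes are not exclusive to vessels. Vcam1 is also made by fibroblasts and some tumour cells, Lyve1 by tissue macrophages, and Cd34 by blood and fat progenitors.

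Array medians over all probe sets lay between 5.24 and 5.53, and arrays within a group correlated with r of at least 0.969 over all genes. The median SD of the 38 genes was 0.15 in mixed tumours, 0.20 in Py8119 tumours and 0.31 in Py117 tumours, against 0.15, 0.15 and 0.20 for all genes in the same groups. As a reference for background, 1394 olfactory and vomeronasal receptor genes had a 95th percentile of 5.31. The group mean lay above that level for 34 of the 38 genes in mixed tumours, 34 in Py8119 tumours and 35 in Py117 tumours, against 19 in Py8119 culture and 19 in Py117 culture. Medians over the 22180 genes were 5.65 to 5.93 in cultures and 5.93 to 6.08 in tumours, so most genes exceeded 5.31 on every array. Prox1, a transcription factor of lymph endothelium, Mmrn1, a multimerin of platelets and lymph vessels, and Sele, the endothelial selectin of inflamed vessels, had means under 5.31 in all 3 tumour groups. Differences below are limma estimates on the log2 scale with standard errors, and a gene was called at an adjusted p under 0.05 over all 22180 genes. The labels name each array a biological replicate without saying which animals or cultures were used, so p-values measure the spread between these samples. In whole tumours, fewer endothelial cells and less RNA of these genes per cell cannot be told apart.

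**Figure D1:**
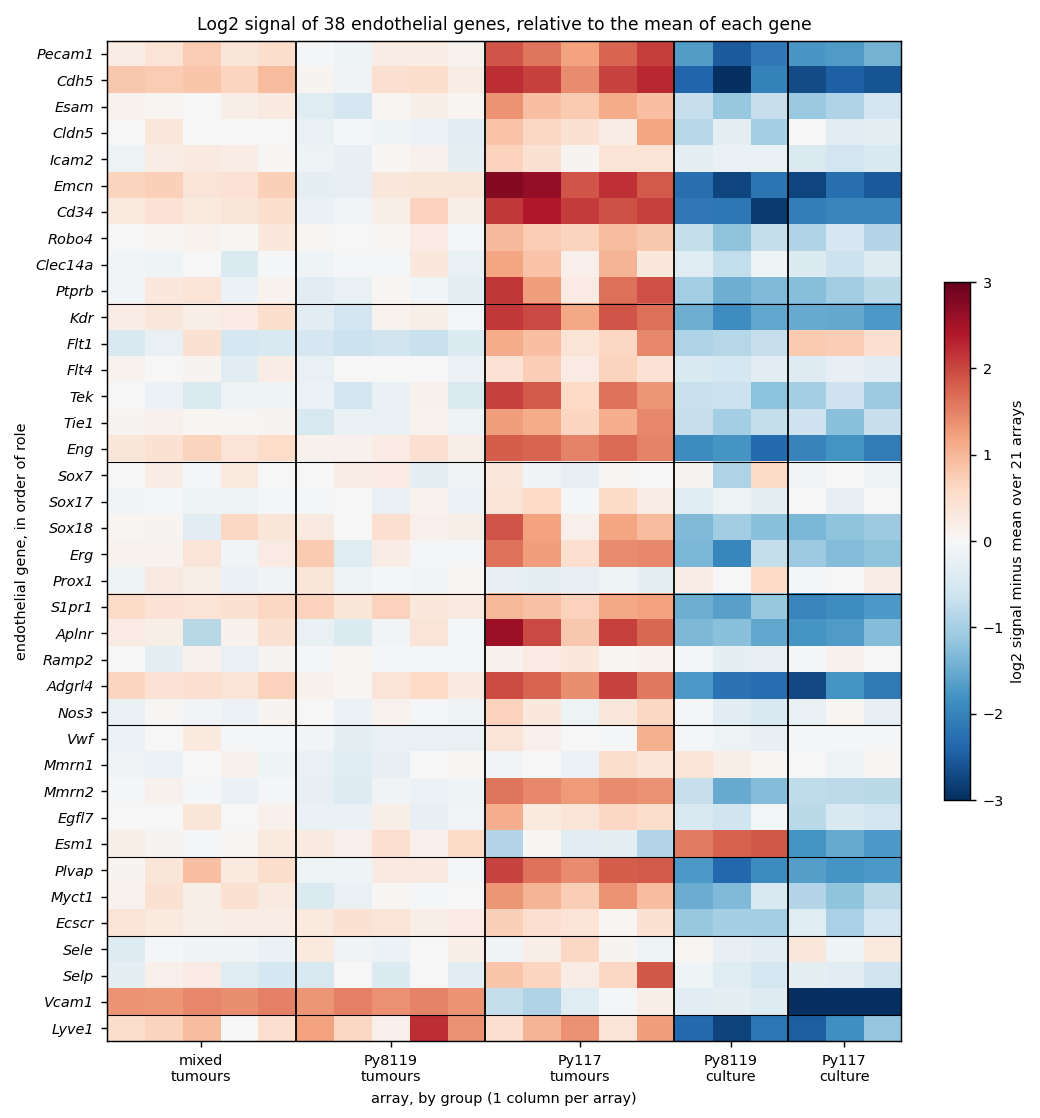
Log2 signal of the 38 endothelial genes (rows, grouped by role) in the 21 arrays (columns), shown as the difference from each gene's mean over all arrays, with colours ending at 3 on either side. The 5 Py117 tumours hold the highest values for most genes, and Vcam1 and Esm1 follow another order. Vcam1 in Py117 culture lies beyond the end of the colour scale.

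RefSeq promoters, taken as the 250 bases before a transcript start, were found for 20 of the 38 genes (25 promoters, build GRCm38.p6). Those of Emcn, Eng, Flt1 and Esm1 are shown because these genes took different courses across the samples. Emcn and Eng were lowest in cultures and highest in Py117 tumours, Flt1 was high in cultured Py117 cells, and Esm1 was high in cultured Py8119 cells. Capitals mark the ETS core AGGAAG or its reverse complement CTTCCT, and the SOX core AACAAT or its reverse complement ATTGTT. The Emcn promoter lies at chr3:137340828-137341077 and the Eng promoter at chr2:32646345-32646594, both on the plus strand. The Flt1 promoter lies at chr5:147726012-147726261 on the minus strand and that of Esm1 at chr13:113209409-113209658 on the plus strand.
Emcn: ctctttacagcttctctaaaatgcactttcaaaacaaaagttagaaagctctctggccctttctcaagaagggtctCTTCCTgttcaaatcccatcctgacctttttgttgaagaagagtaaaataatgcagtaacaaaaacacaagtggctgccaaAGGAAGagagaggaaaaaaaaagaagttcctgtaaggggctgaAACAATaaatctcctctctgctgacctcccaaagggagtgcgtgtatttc
Eng: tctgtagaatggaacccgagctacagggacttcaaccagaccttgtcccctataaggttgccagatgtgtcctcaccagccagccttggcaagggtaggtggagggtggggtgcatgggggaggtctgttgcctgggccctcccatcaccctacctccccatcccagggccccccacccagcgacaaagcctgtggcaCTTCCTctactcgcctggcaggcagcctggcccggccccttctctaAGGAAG
Flt1: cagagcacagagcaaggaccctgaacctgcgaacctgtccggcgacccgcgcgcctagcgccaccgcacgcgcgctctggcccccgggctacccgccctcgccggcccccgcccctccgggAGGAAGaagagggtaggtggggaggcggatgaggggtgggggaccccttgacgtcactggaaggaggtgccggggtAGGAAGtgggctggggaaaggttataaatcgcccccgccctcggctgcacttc
Esm1: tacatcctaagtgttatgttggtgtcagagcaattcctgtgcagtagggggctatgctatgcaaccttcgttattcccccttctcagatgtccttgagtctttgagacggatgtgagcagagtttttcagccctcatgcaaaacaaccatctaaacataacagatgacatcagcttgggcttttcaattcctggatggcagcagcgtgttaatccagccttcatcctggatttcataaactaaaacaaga
The Emcn window held 2 ETS cores and 1 SOX core, the Eng and Flt1 windows 2 ETS cores each, and the Esm1 window neither. Among windows not shown, those of Kdr and Myct1, also highest in Py117 tumours, held neither core. The window of Sele, called in neither line against culture, held 1 ETS core. Over the list, 12 of 25 promoters (11 genes) held an ETS core, against 29.5% of 32851 promoters of all genes. A SOX core was found in 4 of 25, against 9.42% of all promoters. Both strands were searched, and no ETS match overlapped a SOX match in the printed windows. A match describes the letters only.

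Tumours were compared with cultures of the same line. Of the 38 genes, 29 were higher in Py117 tumours than in Py117 culture and 1 was lower, against 12.4% higher and 18.3% lower of all genes (median difference 1.92 for the list, -0.09 for all genes). In Py8119 tumours, 24 were higher than in Py8119 culture and 2 lower, against 16.3% and 20.9% of all genes (median 0.83 for the list, -0.05 for all genes). At least 2-fold increases numbered 26 in Py117 tumours and 16 in Py8119 tumours. The shares of all genes above were taken without that 2-fold cut and do not apply to these counts. Cultures of these lines contain no vessels, and 19 of the 38 genes had a mean under 5.31 in each.

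Cdh5 (probe set 17504399) encodes VE-cadherin, the cadherin of endothelial junctions. Its log2 signals were 9.23, 9.19, 9.25, 9.07 and 9.37 in mixed tumours, 8.51, 8.33, 8.90, 8.95 and 8.64 in Py8119 tumours and 10.65, 10.47, 9.84, 10.46 and 10.70 in Py117 tumours. In cultures they were 6.06, 5.38 and 6.41 in Py8119 cells and 5.74, 5.99 and 5.84 in Py117 cells. All tumours stood above all cultures, and the 3 tumour groups did not overlap each other. The difference from culture was 2.71 ± 0.22 in Py8119 tumours (adjusted p = 9.36e-06) and 4.57 ± 0.18 in Py117 tumours (adjusted p = 5.41e-08).

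Emcn (probe set 17402981), the sialomucin endomucin of capillaries and veins, was also higher in tumours of both lines. Signals were 7.44, 7.50, 7.16, 7.21 and 7.49 in mixed tumours, 6.50, 6.53, 7.11, 7.14 and 7.15 in Py8119 tumours and 9.54, 9.41, 8.67, 8.97 and 8.62 in Py117 tumours. Cultures were under the receptor reference, with 4.52, 4.03 and 4.58 in Py8119 cells and 4.02, 4.51 and 4.26 in Py117 cells. Emcn rose by 2.51 ± 0.20 in Py8119 tumours and by 4.78 ± 0.22 in Py117 tumours over their cultures. Both differences are against cultures under the receptor reference and have no exact size.

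Other genes with large estimated differences in Py117 tumours were Cd34 (4.14 ± 0.12), Adgrl4, an adhesion G protein-coupled receptor of vessels (3.94 ± 0.21), Eng, the TGF-beta coreceptor endoglin (3.61 ± 0.13), and Plvap, the diaphragm protein of fenestrated endothelium (3.46 ± 0.14). Vcam1 (3.41 ± 0.25), the apelin receptor Aplnr (3.41 ± 0.31), the VEGF receptor Kdr (3.35 ± 0.20) and the junction protein Pecam1 (3.33 ± 0.18) were higher as well. In Py8119 tumours over culture the same genes differed by 2.56 ± 0.22 for Cd34, 2.36 ± 0.16 for Adgrl4, 2.24 ± 0.14 for Eng and 2.05 ± 0.16 for Plvap. Kdr differed by 1.49 ± 0.17 there, Aplnr by 1.30 ± 0.16 and Pecam1 by 2.18 ± 0.17, and all 7 were called. Cd34, Adgrl4, Aplnr and Kdr had means under 5.31 in both cultures, so their differences are estimates against background without an exact size. The 18 other genes called higher in Py117 tumours differed by 0.82 ± 0.13 (Flt4) to 2.85 ± 0.14 (S1pr1), and the 11 other genes called higher in Py8119 tumours, apart from 3 described below, by 0.63 ± 0.14 (Tie1) to 1.88 ± 0.15 (S1pr1). Lyve1, the hyaluronan receptor of lymph vessels, was higher in Py8119 tumours (3.53 ± 0.38, adjusted p = 5.66e-05, against a culture mean of 5.00, under the receptor reference) and in Py117 tumours (2.72 ± 0.30).

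Some listed genes gave little or no rise. Sox7, Sox17, Ramp2, Nos3, Vwf, Sele and Flt1 were called in neither line, with differences from -0.07 ± 0.09 (Vwf, the clotting factor stored in endothelial granules, in Py8119 tumours) to 0.50 ± 0.18 (Nos3, the endothelial nitric oxide synthase, in Py117 tumours). Prox1 was lower in Py117 tumours (-0.30 ± 0.10, adjusted p = 0.0494), a call lost without any single Py117 culture or Py117 tumour 1, 2 or 5 (adjusted p up to 0.218). In Py8119 tumours, the small rises of Cldn5 (0.54 ± 0.15), Flt4 (0.35 ± 0.09) and Tek (0.60 ± 0.18) and the fall of Mmrn1 (-0.37 ± 0.12) were lost when single arrays were left out. Adjusted p then reached 0.0896 for Cldn5 without Py8119 culture 1 or 3, 0.0552 for Flt4 without Py8119 culture 2 and 0.107 for Tek without Py8119 culture 3 or Py8119 tumour 1. For Mmrn1 it reached 0.133, and the call was lost without Py8119 culture 1 or 2 or Py8119 tumour 1, 2 or 3.

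Markers of pericytes, leukocytes and fibroblasts were also higher in tumours. Of 10 pericyte markers, 9 were higher in Py117 tumours and 7 in Py8119 tumours than in culture, of 12 leukocyte markers 11 and 11, and of 10 fibroblast markers 10 and 7 (1 was lower in Py8119 tumours). Mean log2 levels of the leukocyte list were 9.05 to 9.48 in mixed tumours, 8.98 to 9.20 in Py8119 tumours and 8.79 to 9.28 in Py117 tumours, against 5.35 to 5.51 in Py8119 culture and 5.37 to 5.40 in Py117 culture.

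**Figure D2:**
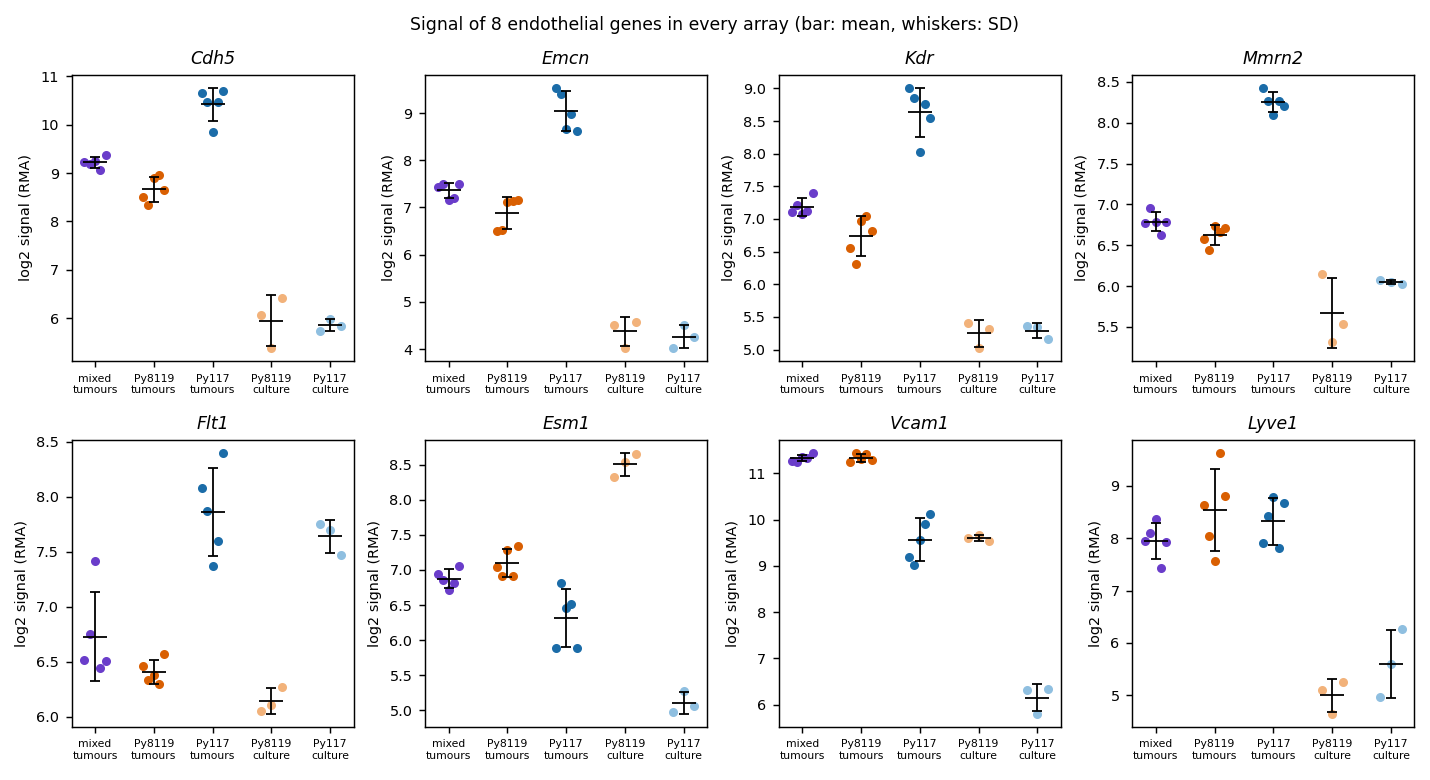
Log2 signal of 8 endothelial genes in every array (points), with the mean (long bar) and SD (whiskers) of each group of 5 tumours or 3 cultures. Cdh5, Emcn, Kdr and Mmrn2 are highest in Py117 tumours, Vcam1 and Esm1 are lowest in Py117 culture, Flt1 is high in Py117 culture, and Lyve1 overlaps across the tumour groups.

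Between cultures, 2 of the 38 genes were higher in Py8119 cells than in Py117 cells and 1 was lower, against 14.5% higher and 12.3% lower of all genes. The median difference was -0.04 for the list and -0.01 for all genes. The 3 values of each line did not overlap for 4 genes higher and 3 lower in Py8119 cells, against 21.8% and 20.2% of all genes. Esm1 (probe set 17290010), the secreted proteoglycan endocan of endothelial tip cells, read 8.33, 8.54 and 8.65 in Py8119 cells against 4.98, 5.27 and 5.06 in Py117 cells. The groups were far apart (3.40 ± 0.13, adjusted p = 5.26e-06), and only the Py117 cells were within background.

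Vcam1 (probe set 17409649), the adhesion molecule that binds leukocyte integrins, read 9.61, 9.66 and 9.54 in Py8119 cells against 6.32, 5.81 and 6.33 in Py117 cells (3.45 ± 0.16, adjusted p = 1.11e-05). Flt1 (probe set 17455346), which encodes VEGF receptor 1 and its soluble form, went the other way, with 6.05, 6.11 and 6.27 in Py8119 cells against 7.75, 7.70 and 7.47 in Py117 cells (-1.50 ± 0.12, adjusted p = 0.000123). In a whole tumour, the signal of implanted cells and that of host vessels cannot be told apart for Vcam1, Esm1 and Flt1. Without Py8119 culture 1, Pecam1 (-0.70) and Mmrn2 (-0.62) were also called lower, 3 in all. Without Py8119 culture 2, Cldn5 (-0.72) was added to the lower calls and S1pr1 (0.55) to the higher calls, and without Py117 culture 2, Ecscr (-0.59) was added to the lower calls.

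The comparison of Py8119 with Py117 tumours asks how vessel genes differ between the resistant and the sensitive tumour in the same site. Of the 38 genes, 29 were lower in Py8119 tumours and 2 higher, against 16.5% lower and 21% higher of all genes. The median difference was -0.84 for the list and 0.01 for all genes, and 18 of the 29 were at least 2-fold lower. For 22 genes every Py8119 tumour was below every Py117 tumour, and for 2 every one was above, which held for 11.9% and 15.7% of all genes. Leaving out any single tumour gave 29 to 30 lower calls, and the 31 calls were all retained.

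All 10 junction and surface proteins were lower in Py8119 tumours. Emcn had the largest difference of the list (-2.15 ± 0.18, 4.45-fold lower), followed by Cd34 (-1.97 ± 0.14), Cdh5 (-1.76 ± 0.15), Pecam1 (-1.63 ± 0.14) and Ptprb, the phosphatase VE-PTP that acts on VE-cadherin and Tek (-1.61 ± 0.25). Cd34 (probe set 17221014) read 7.03, 7.15, 7.42, 7.93 and 7.43 in Py8119 tumours against 9.37, 9.63, 9.34, 9.15 and 9.30 in Py117 tumours, with no overlap. The adhesion molecule Esam (-1.13 ± 0.13), the tight junction claudin Cldn5 (-0.84 ± 0.14), the guidance receptor Robo4 (-0.78 ± 0.09), the lectin Clec14a (-0.73 ± 0.17) and Icam2 (-0.50 ± 0.12) differed less. Clec14a had means of 5.11 in Py8119 tumours and 5.85 in Py117 tumours, so its lower group was within background.

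All 6 growth factor receptors and coreceptors were lower as well. Kdr (probe set 17448924), the main signalling receptor of VEGF, read 6.55, 6.31, 6.97, 7.05 and 6.82 in Py8119 tumours against 9.00, 8.85, 8.03, 8.76 and 8.54 in Py117 tumours. The groups were separate, with Py117 tumour 3 lowest in its group, and Kdr was 3.72-fold lower (-1.90 ± 0.16, adjusted p = 4.61e-08). The angiopoietin receptor Tek differed by -1.75 ± 0.21 and its partner Tie1 by -1.29 ± 0.13. Eng differed by -1.40 ± 0.10, Flt1 by -1.45 ± 0.19, and Flt4, the VEGF-C receptor of lymph endothelium, by -0.59 ± 0.11. For Flt1 the difference between the tumours was about that between the cultures given above, and the interaction of line and setting was 0.04 ± 0.24 (95% interval -0.47 to 0.55).

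Transcription factors differed less uniformly, with 3 of 5 lower. Erg (probe set 17332358), an ETS factor of mature endothelium, read 7.06, 5.91, 6.49, 6.24 and 6.24 in Py8119 tumours against 7.89, 7.53, 6.77, 7.69 and 7.71 in Py117 tumours. Py8119 tumour 1 stood above Py117 tumour 3, so the groups overlapped (-1.13 ± 0.20, adjusted p = 0.000195). Sox18 (-0.85 ± 0.23) and Sox17 (-0.40 ± 0.11), SOX factors of vessel and arterial identity, were lower with overlap. Sox7 differed by 0.01 ± 0.12 (95% interval -0.24 to 0.27), and Prox1 by 0.27 ± 0.11 near background (adjusted p = 0.0643).

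Of the G protein-coupled receptors, their partner and nitric oxide synthase, 4 of 5 were lower. Aplnr (probe set 17372725), the apelin receptor of sprouting vessels, read 6.39, 6.19, 6.54, 7.00 and 6.57 in Py8119 tumours against 9.20, 8.61, 7.44, 8.67 and 8.35 in Py117 tumours (-1.91 ± 0.27). Adgrl4 differed by -1.45 ± 0.13, the sphingosine phosphate receptor S1pr1 by -0.52 ± 0.11 and Nos3 by -0.42 ± 0.13. Ramp2, the receptor partner for adrenomedullin, differed by -0.19 ± 0.09 (adjusted p = 0.107).

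Secreted and membrane proteins were divided. Mmrn2 (probe set 17298825), a matrix protein that binds Clec14a, had the smallest adjusted p of the list. It read 6.58, 6.44, 6.73, 6.66 and 6.71 in Py8119 tumours against 8.43, 8.27, 8.10, 8.26 and 8.20 in Py117 tumours, without overlap (-1.63 ± 0.09, adjusted p = 9.71e-11). Plvap (-1.70 ± 0.15), Myct1, a membrane protein of endothelial cells (-1.21 ± 0.13), and Egfl7, a secreted factor of vessel tubes (-0.68 ± 0.14), were lower. Vwf was lower (-0.52 ± 0.16, adjusted p = 0.0163), with a difference of -0.33 without Py117 tumour 5, which read 6.81 while the other Py117 tumours read 5.71 to 6.13. Ecscr, a regulator of endothelial migration, differed by -0.11 ± 0.11, and Mmrn1 by -0.29 ± 0.13.

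Esm1 and Vcam1 were the higher genes. Esm1 read 6.94, 6.86, 6.71, 6.82 and 7.06 in mixed tumours, 7.04, 6.92, 7.28, 6.92 and 7.34 in Py8119 tumours and 5.89, 6.82, 6.46, 6.51 and 5.89 in Py117 tumours. Every Py8119 tumour was above every Py117 tumour (0.79 ± 0.16, adjusted p = 0.000501), by less than the lines differed in culture. Vcam1 read 11.27, 11.25, 11.36, 11.33 and 11.43 in mixed tumours, 11.25, 11.44, 11.30, 11.42 and 11.28 in Py8119 tumours and 9.20, 9.02, 9.56, 9.90 and 10.13 in Py117 tumours. The Py117 tumours stood below all others, and Vcam1 was 3.43-fold higher in Py8119 tumours (1.78 ± 0.16, adjusted p = 6e-08).

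The other leukocyte adhesion molecules did not follow Vcam1. Selp, the P-selectin of venules and platelets, was lower (-1.09 ± 0.23, adjusted p = 0.000886), and Sele differed by -0.09 ± 0.13 near background. Lyve1 read 7.94, 8.10, 8.36, 7.43 and 7.92 in mixed tumours, 8.63, 8.05, 7.57, 9.63 and 8.80 in Py8119 tumours and 7.90, 8.43, 8.79, 7.81 and 8.68 in Py117 tumours. The 3 groups overlapped, and the difference of Py8119 from Py117 tumours was 0.21 ± 0.30 (95% interval -0.42 to 0.84).

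**Figure D3:**
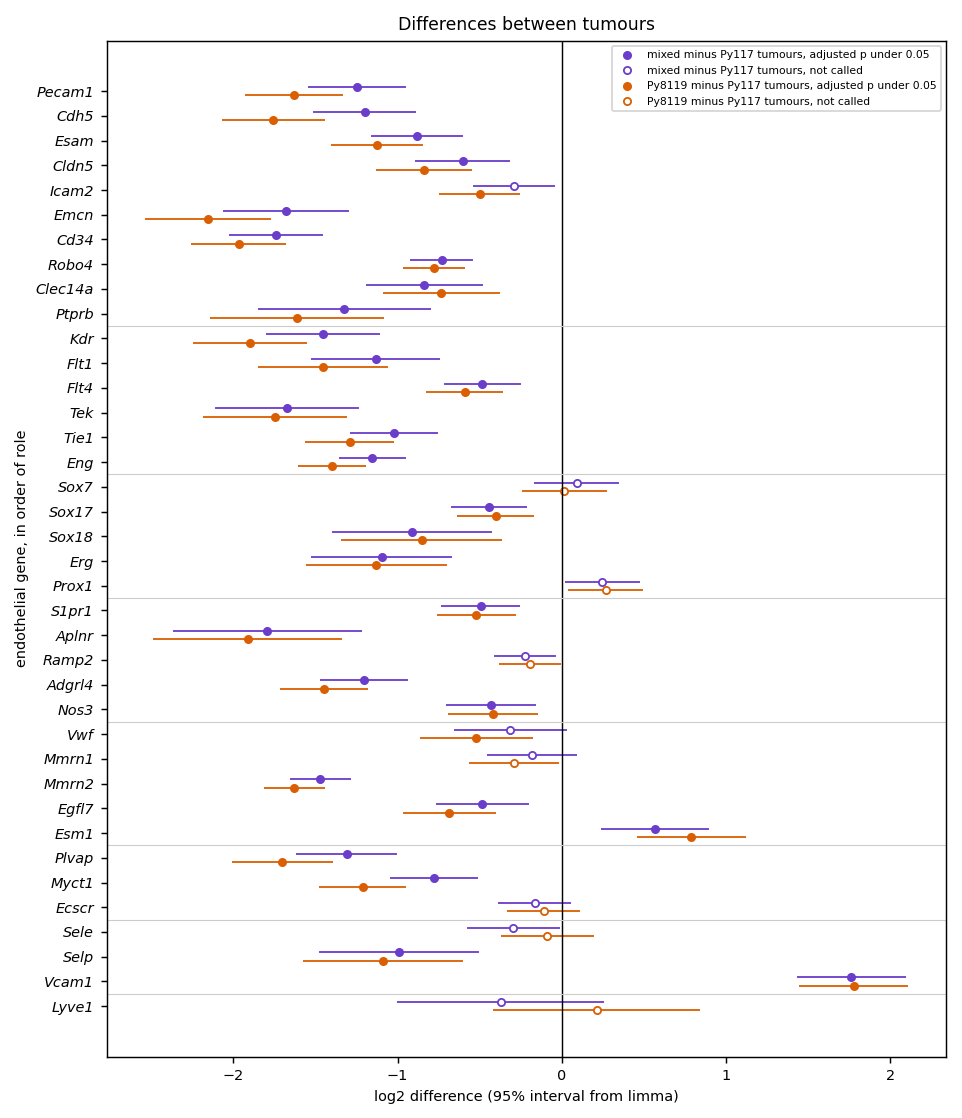
Log2 difference of each endothelial gene from Py117 tumours, for mixed tumours and for Py8119 tumours, with 95% intervals (horizontal bars) and the line of no difference. Filled points were called and open points were not. Most genes lie left of that line in both, and Vcam1 and Esm1 lie right of it. Both sets of differences use the same 5 Py117 tumours.

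Markers of other cell types also differed between these tumours. Of 10 adipocyte markers, 9 were lower in Py8119 than in Py117 tumours, with list means of 5.96 to 6.55 in Py8119 tumours and 6.69 to 8.89 in Py117 tumours. Of the 10, 2 had group means under 5.31 in Py8119 tumours, and every one was above it in Py117 tumours. Thrsp had the largest difference of that list (-5.12 ± 0.21), and Adipoq was not called (-1.07 ± 0.47, limma adjusted p = 0.0862). Pnpla2 had means of 8.57 in Py117 culture and 8.56 in Py8119 culture, so the list mean is not adipocyte signal alone. The adipocyte means of Py8119 and Py117 tumours did not overlap, so a fit with that mean as a covariate cannot separate adipocyte content from tumour line. With the adipocyte mean as a covariate, 18 endothelial genes were lower and 1 was higher. The shares of all genes given above are from the main fit. Those under covariates or without Py117 tumours 1, 4 and 5 are not given here. Of the 29 lower calls, 17 were kept and 12 lost, and Sele was gained. Calls kept included Emcn (-2.12), Cd34 (-2.03), Kdr (-1.62), Mmrn2 (-1.53), Plvap (-1.42), Eng (-1.35) and Cdh5 (-1.34), and Vcam1 stayed higher (2.11). The lost calls were Cldn5, Icam2, Clec14a, Ptprb (-0.69, adjusted p = 0.0701), Sox17, Sox18, Erg (-0.64, adjusted p = 0.103), S1pr1, Nos3, Vwf, Egfl7 and Selp, and the higher call of Esm1 was lost too (0.21, adjusted p = 0.392). Without Py117 tumours 1, 4 and 5, the 3 with the highest adipocyte mean, 24 genes were lower and 2 higher: 23 of the 29 lower calls were kept, 6 were lost (Icam2, Sox17, Sox18, S1pr1, Nos3 and Vwf) and Ramp2 was gained.

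Fibroblast markers were lower for 10 of 10, with means of 8.01 to 8.91 in Py8119 tumours and 9.36 to 10.49 in Py117 tumours. Pericyte markers were lower for 6 of 10 and higher for 1, with means of 6.84 to 7.11 in Py8119 tumours and 7.28 to 7.78 in Py117 tumours. Of these, 1 of 10 pericyte markers and no fibroblast marker had a group mean under 5.31 in either tumour. Epithelial markers were lower for 7 of 10, with means of 6.11 to 6.26 in Py8119 tumours and 8.55 to 9.22 in Py117 tumours, and 5 of 10 were under 5.31 in Py8119 tumours. The part of fibroblasts, pericytes and epithelial tumour cells in the endothelial differences was not tested. Leukocyte markers were higher for 4 of 12 and lower for 3, and with their mean as a covariate 29 endothelial genes were lower. That mean was 9.06 in Py8119 tumours and 9.06 in Py117 tumours, so the covariate could not take up a difference between these groups. Among pericyte genes, Mcam (-1.65 ± 0.12) and Rgs5 (-1.60 ± 0.27) were lower and Pdgfrb, the PDGF receptor of mural cells and fibroblasts, was higher (0.90 ± 0.13). Between cultures, Mcam was likewise lower in Py8119 cells (-2.12 ± 0.19) and Pdgfrb higher (1.21 ± 0.21), while Rgs5 was not called (-0.04 ± 0.35). Among leukocyte markers, the macrophage receptor Mrc1, which marks cells that can carry Lyve1, was higher by 1.14 ± 0.24. Cd3e (-1.58 ± 0.27) and Ptprc (-0.98 ± 0.17) had the largest negative differences of that list. Of 6 platelet markers, Pf4, a platelet chemokine, was higher (2.08 ± 0.19) and the integrin Itgb3 lower (-3.24 ± 0.20). Itga2b, Gp9, Ppbp and Treml1 were not called, with differences from -0.11 (Gp9) to 0.09 (Treml1). Itgb3 was also lower in cultured Py8119 than Py117 cells (-1.07 ± 0.25), and Pf4 was not called there (-0.56 ± 0.34). In whole tumours, the signal of implanted cells and that of host cells cannot be told apart for Mcam, Pdgfrb and Itgb3.

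**Figure D4:**
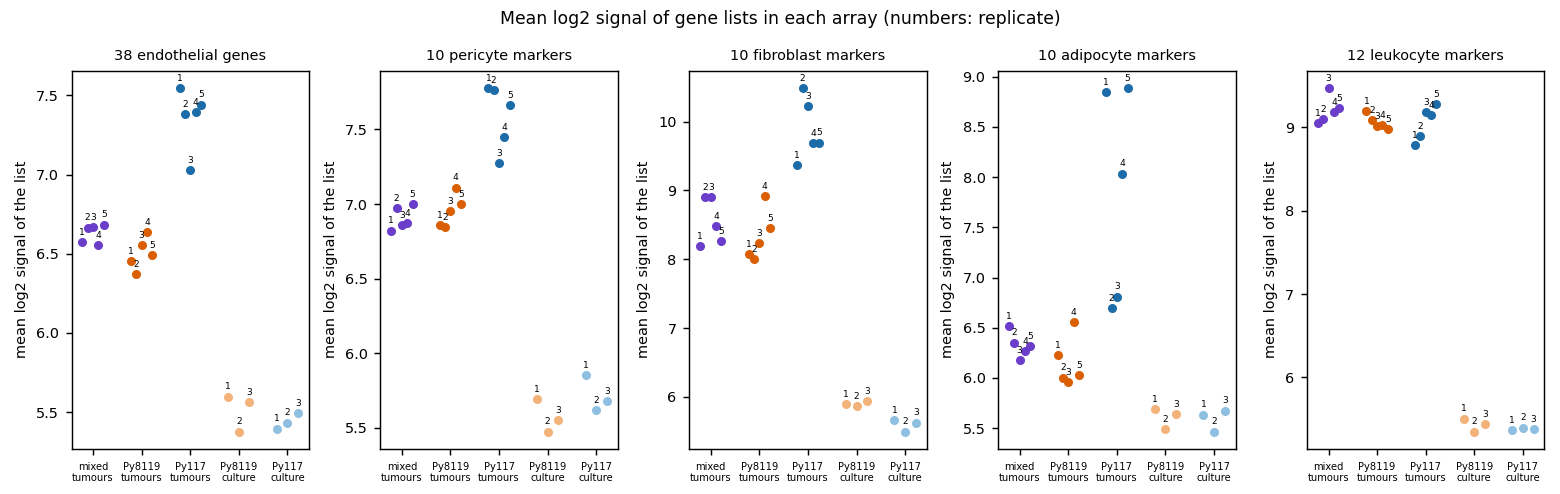
Mean log2 level of the endothelial genes and of marker lists for other cell types in each array (points), by group. Endothelial, pericyte, fibroblast and adipocyte means are highest in Py117 tumours, and leukocyte means overlap across the 3 tumour groups.

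Genes that act on vessels were read from further lists in the same comparison. Of 8 VEGF and angiopoietin ligands, 4 were lower in Py8119 than in Py117 tumours and 3 higher. Vegfa, the main ligand of Kdr and Flt1, read 8.89, 8.90, 8.84, 8.46 and 8.90 in Py8119 tumours against 9.90, 10.09, 10.35, 9.66 and 9.78 in Py117 tumours, without overlap (-1.16 ± 0.14, adjusted p = 1.87e-06). The lymph vessel ligands Vegfc (1.38 ± 0.10) and Vegfd (1.50 ± 0.21) were higher in Py8119 tumours, and Angpt4, an angiopoietin, was lower (-1.65 ± 0.24). In culture Vegfc (2.30 ± 0.09) and Vegfd (2.87 ± 0.14) were likewise higher and Vegfa lower (-0.54 ± 0.10) in Py8119 cells.

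Of 16 Notch, ephrin and neuropilin genes, 9 were lower in Py8119 tumours, with 5 higher. The arterial ephrin Efnb2 was higher (2.85 ± 0.14), as it was in cultured Py8119 cells (1.72 ± 0.12), and so was Nrp2, a coreceptor for VEGF-C (1.31 ± 0.14). The Notch target Hey1 (-2.13 ± 0.14) and Notch1 (-1.49 ± 0.10) were lower. In culture Hey1 (-0.98 ± 0.28) and Notch1 (-2.08 ± 0.15) were likewise lower in Py8119 cells, and Nrp2 was not called (0.10 ± 0.10). Of 24 other regulators of endothelial cells, 8 were higher and 7 lower. They included the forkhead factors Foxf1 (1.69 ± 0.12), Foxo1 (-1.44 ± 0.11) and Foxc1 (-0.91 ± 0.10) and the venous factor Nr2f2 (1.41 ± 0.14). Cultured Py8119 cells differed from Py117 cells in the same directions for Foxf1 (2.12 ± 0.15), Foxo1 (-1.37 ± 0.12), Foxc1 (-0.76 ± 0.11) and Nr2f2 (1.49 ± 0.12). In whole tumours, the signal of implanted cells and that of host vessels cannot be told apart for these genes.

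Genes of capillaries, fatty acid transport and vessel basement membrane were lower for 14 of 21 and higher for 4. Lama4, the laminin chain of vessel basement membrane, was lower in Py8119 tumours (-2.56 ± 0.16), as in Py8119 culture (-3.38 ± 0.11). The lipase Lpl was lower in tumours (-2.32 ± 0.39), while the water channel Aqp1 (2.62 ± 0.26) and the fatty acid binding protein Fabp5 (0.85 ± 0.20) were higher. Aqp1 (1.67 ± 0.22) and Fabp5 (1.18 ± 0.19) were also higher in cultured Py8119 cells, and Lpl was not called there (-0.02 ± 0.27). Of 8 lymph vessel genes, which include 4 of the 38, the scavenger receptor Stab1 (1.49 ± 0.17) and podoplanin, Pdpn (1.32 ± 0.14), were higher and Flt4 was lower. Stab1 and Pdpn were also higher in cultured Py8119 cells (0.48 ± 0.13 and 2.40 ± 0.12). In whole tumours, the cells that carry Stab1 and Pdpn cannot be told apart. Of the 8 genes, 4 had group means under 5.31 in Py8119 tumours and 4 in Py117 tumours.

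Mixed tumours were set against both parental tumours, and all these comparisons share tumour arrays. Against Py117 tumours, 27 of the 38 genes were lower in mixed tumours and 2 higher, against 16.9% lower and 19.2% higher of all genes (median -0.81 for the list, -0.03 for all genes). For 20 genes every mixed tumour was below every Py117 tumour, and for 1 above, which held for 10.8% and 14.0% of all genes. Aplnr (-1.79 ± 0.27), Cd34 (-1.74 ± 0.14), Emcn (-1.68 ± 0.18), Tek (-1.67 ± 0.21) and Mmrn2 (-1.47 ± 0.09) had the largest negative differences, and Vcam1 was 3.39-fold higher (1.76 ± 0.16). Tek read 5.73, 5.55, 5.28, 5.56 and 5.59 in mixed tumours, 5.54, 5.14, 5.53, 5.85 and 5.29 in Py8119 tumours and 7.78, 7.57, 6.31, 7.36 and 7.05 in Py117 tumours. Only the Py117 tumours stood apart for this gene. Adipocyte markers were lower for 9 of 10 in mixed tumours, with list means of 6.18 to 6.51, and with their mean as a covariate 17 of the 27 lower calls were kept. These means did not overlap those of Py117 tumours, so this covariate cannot separate adipocyte content from tumour group. The share of all genes called under this covariate is not given here. Esm1 was higher by 0.57 ± 0.16, a call lost with that covariate (0.05, adjusted p = 0.845) and without Py117 tumours 1, 4 and 5 (0.24, adjusted p = 0.202).

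Against Py8119 tumours, 0 of the 38 genes were called higher or lower by limma, with 1.61% higher and 0.162% lower of all genes. At an unadjusted p under 0.05, 8 were higher and 0 lower, against 6.57% and 6.87% of all genes, and the median difference was 0.12 for the list and -0.03 for all genes. For 6 genes (Pecam1, Cdh5, Cldn5, Emcn, Kdr and Myct1) every mixed tumour was above every Py8119 tumour, as for 3.85% of all genes. The largest positive differences were those of Cdh5 (0.56 ± 0.15, 95% interval 0.24 to 0.87, adjusted p = 0.0751), Emcn (0.47 ± 0.18, interval 0.09 to 0.86), Kdr (0.44 ± 0.16, interval 0.09 to 0.79) and Myct1 (0.44 ± 0.13, interval 0.17 to 0.70). Cdh5 was called without Py117 tumour 3 (adjusted p = 0.00843), which enters only the shared estimate of the spread, while leaving out any other tumour gave 0.0540 to 0.215. Lyve1 had the most negative difference (-0.58 ± 0.30, interval -1.21 to 0.05).

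The place of the mixed tumours between the parents was read on the linear scale, with the Py117 mean as 0% and the Py8119 mean as 100%. Over the 18 genes at least 2-fold lower in Py8119 tumours, the median position was 89.2%, with a range from 73.8% (Myct1) to 101% (Erg). All 1169 genes of the array with the same property had a median of 86.6%. The 5 mixed tumours had medians of 93.4%, 87.9%, 87.5%, 95.1% and 86.0% over the 18 genes. Cdh5 stood at 81.1%, Kdr at 87.7%, Emcn at 89.6%, Cd34 at 94.9% and Tek at 98.4%, and Vcam1, the gene at least 2-fold higher, at 98.5%. These positions use the parental difference that chose the genes and describe the level only.

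Relative to the mean of both parents on the log2 scale, 13 of the 38 genes were lower in mixed tumours and 1 was higher, against 6.47% lower and 8.33% higher of all genes (median -0.33 for the list, -0.03 for all genes). The calls of Mmrn2 (-0.65 ± 0.08, adjusted p = 2.84e-05), Cd34 (-0.76 ± 0.12), Eng (-0.45 ± 0.08), Tek (-0.80 ± 0.18), Robo4 (-0.34 ± 0.08), Adgrl4 (-0.48 ± 0.11), Emcn (-0.60 ± 0.16) and Vcam1 (0.87 ± 0.14) held without any single tumour. Those of Pecam1 (-0.43) and Plvap (-0.46) were lost without mixed tumour 1, 2 or 4 (adjusted p up to 0.0860 and 0.0804), and that of Kdr (-0.51) without mixed tumour 1, 3 or 4 (up to 0.0642). Tie1 (-0.38) was lost without any single mixed tumour (up to 0.0737) and Aplnr (-0.84) without mixed tumour 3 (0.0754). Clec14a (-0.47) was lost without mixed tumour 1, 2, 4 or 5, Py8119 tumour 2, 3 or 4 or Py117 tumour 2 or 4 (up to 0.119). The number of lower calls was 22 without Py117 tumour 3 and 8 without mixed tumour 1 or mixed tumour 4.

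The interaction of line and setting asks whether the rise over culture differed between the lines. Of the 38 genes, 22 had a lower tumour minus culture difference in Py8119 than in Py117 and 0 a higher one, against 5.99% and 7.50% of all genes (median -0.98 for the list, 0.03 for all genes). At an unadjusted p under 0.05 by limma, 27 were lower and 0 higher, against 11.5% and 14.0% of all genes. Esm1 differed most (-2.62 ± 0.26, adjusted p = 3.15e-06). It was lower in Py8119 tumours than in Py8119 culture (-1.41 ± 0.13) and higher in Py117 tumours than in Py117 culture (1.21 ± 0.21). The interaction was -2.27 ± 0.32 for Emcn, -2.11 ± 0.39 for Aplnr, -1.85 ± 0.31 for Cdh5, -1.85 ± 0.28 for Kdr and -1.81 ± 0.37 for Tek. Vcam1 also rose less in Py8119 tumours (-1.68 ± 0.28), and its culture level was higher in Py8119 cells. Cd34 and Adgrl4 had -1.58 each, Plvap -1.41 ± 0.22, Eng -1.37 ± 0.19, Tie1 -1.33 ± 0.25 and Mmrn2 -1.25 ± 0.20. For Emcn, Aplnr, Kdr, Tek, Cd34 and Adgrl4 both culture means were under 5.31. Their interactions have no exact size and rest mainly on the difference between the tumours. Lyve1 (0.82 ± 0.53, 95% interval -0.30 to 1.94), Ecscr (0.31 ± 0.20) and Ramp2 (0.02 ± 0.13) were not called.

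Of these 22 calls, 17 held without any single array. Selp was lost without any single culture, Py117 tumour 1 or Py8119 tumour 1, 3 or 5 (adjusted p up to 0.110). Ptprb was lost without Py117 culture 1 or 2, Py8119 culture 1 or 3, Py117 tumour 4 or 5 or Py8119 tumour 1, 2 or 5 (up to 0.0896). Robo4 was lost without Py117 culture 1 or 3 or Py8119 culture 1 or 3 (up to 0.0731), Egfl7 without Py8119 culture 3 (0.0539) and Myct1 without Py117 culture 2 (0.0601).

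**Figure D5:**
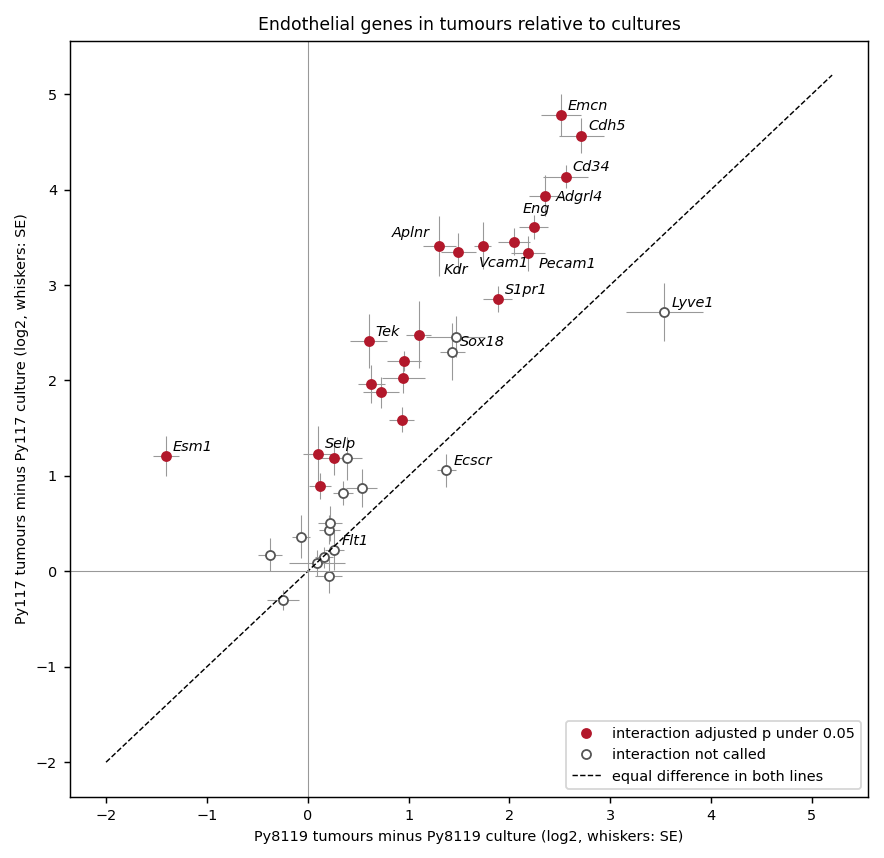
Log2 difference of tumours from cultures for the 38 endothelial genes, in Py117 (vertical axis) and Py8119 (horizontal axis), with standard errors as whiskers. Filled points mark the 22 genes whose interaction was called. Emcn, Cdh5 and Cd34 lie far above the dashed line of equal difference, Esm1 lies left of 0, and Lyve1 lies below the line.

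Within Py117 tumours, tumour 3 had the lowest value for 25 of the 38 genes and for 30.8% of all genes. Py117 tumour 1 had the highest value for 18 and the lowest for 0, against 16% and 24.7% of all genes. Mean log2 levels over the 38 genes were 6.58, 6.66, 6.67, 6.55 and 6.68 in mixed tumours, 6.45, 6.37, 6.55, 6.64 and 6.49 in Py8119 tumours and 7.55, 7.38, 7.03, 7.39 and 7.44 in Py117 tumours. Py117 tumour 3 was the lowest of its group, and all 5 Py117 tumours stood above all others. In Py8119 tumours, tumour 2 was lowest for 15 genes (15.9% of all genes) and tumour 4 highest for 15 (29.2%). In mixed tumours, tumour 4 was lowest for 14 (18.7% of all genes), tumour 3 for 11 (27.9%) and tumour 1 for 9 (22.7%). Mixed tumours 3 and 5 were highest for 13 each (20.1% and 25.8% of all genes). Ptprb spread the most among Py117 tumours, with 8.39, 7.50, 6.50, 7.89 and 8.17 (SD 0.74), while Mmrn2 had an SD of 0.12 there. The adipocyte means of the same Py117 tumours were 8.85, 6.69, 6.81, 8.04 and 8.89. A relation of adipocyte to endothelial means within the group was not tested.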

How the data were processed

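The authors deposited log2 values made by RMA from 21 arrays, and the submitters' processing notes name RMA and limma without versions. The array's genome build and any hybridization batch were not given in the sources used here, and the number of arrays limits the precision. Of 41345 probe sets, 23521 carried a single gene symbol, 1814 several and 16010 none. The 1082 genes with several single-symbol probe sets were read from the one with the highest mean, which left 22180 genes. Linear models and moderated tests came from limma (version 3.58.1, run in R version 4.3.3), and p-values were adjusted by Benjamini-Hochberg over all genes. The scripts were first tested on simulated data. The 15 tumours shared 1 fit, each line's tumours and culture another, the 6 cultures another, and the interaction used the 16 unmixed samples. Groups came from the labels. No sample column was left unused (0). The olfactory and vomeronasal receptor reference was chosen after the values were seen. The 38 genes and all other lists were chosen with earlier results of these data known. All 38 were described. Genes named from the other lists were among the called genes with the largest positive and negative differences, up to 2 each. Not every such gene was named, and culture values were given for some. Adipoq and Pnpla2 were named besides, to show limits of the adipocyte list, and Itga2b, Gp9, Ppbp and Treml1 to show those of the platelet list. Promoters are RefSeq sequences of GRCm38.p6. Alternatives were quantile normalization, median centring, leaving out genes below the median level, the mean of all probe sets, a replicate block, weights per array, a robust prior with an intensity trend, all 21 arrays in 1 fit, an adjusted p under 0.01, adipocyte or leukocyte marker means as covariates, and leaving out arrays. Plots used Python 3.11.15 and matplotlib 3.10.9.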

Additional observations from a re-analysis of the deposited data

Results flagged for a closer look

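Single tumours stood apart from their group where the gap to the nearest other tumour was large against the range of all 5, which chance gives in about 1 of 20 groups. Among the 38 genes these were Cdh5 in Py117 tumour 3 (9.84), Cldn5 in mixed tumour 2 (6.04), Robo4 in mixed tumour 5 (6.73), Aplnr in mixed tumour 3 (5.79), Ramp2 in Py8119 tumour 2 (6.32) and Vwf in Py8119 tumour 1 (5.65). That is 6 of 114 pairs of gene and tumour group. The mean of the growth factor receptors and coreceptors was low in Py117 tumour 3 (7.37).

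Among other genes, the leukocyte antigen Ptprc in mixed tumour 3 (10.22), the epithelial splicing factor Esrp1 in mixed tumour 1 (7.32), Vegfa in Py8119 tumour 4 (8.46) and Foxo1 in mixed tumour 1 (7.27) stood apart. So did Foxc1 in mixed tumour 5 (8.68) and Aqp1 in Py8119 tumour 3 (10.79). In mixed tumour 5 the mean of the platelet markers (6.20) and that of the other endothelial regulators (7.24) stood apart as well.

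The rise of tumours over cultures differed between the lines by the limma interaction for 22 endothelial genes. The log2 differences were -1.15 for Pecam1, -1.85 for Cdh5, -1.15 for Esam, -0.77 for Icam2, -2.27 for Emcn, -1.58 for Cd34, -0.66 for Robo4 and -1.38 for Ptprb among junction and surface proteins. Receptors gave -1.85 for Kdr, -1.81 for Tek, -1.33 for Tie1 and -1.37 for Eng. They were -0.97 for S1pr1, -2.11 for Aplnr and -1.58 for Adgrl4, and among secreted proteins -1.25 for Mmrn2, -0.93 for Egfl7 and -2.62 for Esm1. The others were -1.41 for Plvap, -1.08 for Myct1, -1.13 for Selp and -1.68 for Vcam1. Both culture means were under 5.31 for Esam, Emcn, Cd34, Ptprb, Kdr, Tek, S1pr1, Aplnr, Adgrl4, Myct1 and Selp, so these have no exact size.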

How the results depend on the processing

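No called difference of an endothelial gene changed sign under the alternatives run, while 157 estimates that were not called did, 23 of them with quantile normalization and 20 with median centring (adjusted p at least 0.188). Of 6805 results by gene and setting, 6534 kept their side of the threshold, 161 lost it and 110 gained it. The cause of the changes below was not tested. Leaving out single arrays gave 29 to 31 higher and 0 to 1 lower genes in Py117 tumours against culture, 23 to 25 and 1 to 2 in Py8119 tumours against culture, and 2 to 3 higher and 29 to 30 lower in Py8119 against Py117 tumours. Mixed tumours had 2 higher and 27 to 29 lower against Py117 tumours, 0 to 1 higher and 0 lower against Py8119 tumours, and 1 higher and 8 to 22 lower against the parental mean. The cultures had 2 to 3 higher and 1 to 3 lower, and the interaction 0 and 18 to 26. The lower call in Py117 tumours against culture (1) became 0 with quantile normalization, without genes of low level, with the intensity trend, in the fit of all arrays, with the replicate block and at an adjusted p under 0.01. In Py8119 tumours against culture, lower calls were 4 with median centring and 1 without genes of low level or at an adjusted p under 0.01, and higher calls were 15 without genes of low level, where fewer genes were tested. With the adipocyte covariate, Py8119 against Py117 tumours had 1 higher and 18 lower, mixed against Py117 tumours 1 higher (also 1 without Py117 tumours 1, 4 and 5), mixed against Py8119 tumours 1 higher and the parental mean 8 lower. Mixed against Py8119 tumours also had 1 higher without genes of low level, 3 with array weights, 1 with the leukocyte covariate and 2 without Py117 tumours 1, 4 and 5. Against the parental mean, lower calls were 21 with array weights, 6 at an adjusted p under 0.01 and 8 without those 3 tumours. Cultures had 5 higher with quantile normalization or median centring, and 2 lower without genes of low level, 3 with array weights and 2 in the fit of all arrays. Median centring moved the median gene to -0.25 and -0.26 in the Py117 and Py8119 tumour and culture comparisons, 0.11 between tumours and 0.14 between cultures. For arrays with the same replicate number, deviations from the group means correlated with r from -0.23 to 0.26 (36 pairs, 6 over 0.1). Arrays with different numbers were not compared, so this cannot show whether replicate numbers pair the samples. With the replicate block, 20 genes were higher in Py8119 tumours than in culture (Tie1, Tek, Flt4 and Cldn5 were lost), 30 were lower in Py8119 than in Py117 tumours, 12 were lower than the parental mean, 3 were higher between cultures and 22 were lower in the interaction.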
